A study of Homo sapiens with 6 samples.

Results

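TCF7L2 and 9 other genes of Wnt/beta-catenin signalling were followed in RWPE-1 cells whose miR-205 had been targeted. The 10 genes were TCF7L2, TCF7L1, LEF1, CTNNB1, APC, AXIN1, GSK3B, LRP5, LRP6 and FZD6, out of 18852 genes named on the array, and every probe annotated to them was taken, 19 in all. TCF7L2 was chosen by its normalized log2 intensity on these same arrays, which was lower in LNA-205, so its difference is described here and not tested. The other 9 were chosen as parts of the same pathway. RWPE-1 is an immortalised human cell line of prostate epithelium that does not form tumours. The LNA-205 group was transfected with 100 nM of a locked nucleic acid antisense to miR-205, and the LNA-Scr group with 100 nM of a scrambled oligomer. RNA was taken after 72 h, and each of the 3 LNA-205 samples (D, E and F) and the 3 LNA-Scr samples (A, B and C) was hybridised to an Illumina bead array of its own. All samples share 1 cell line and 1 dose, and p-values measure only the spread between these transfections.

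In the canonical Wnt pathway a secreted Wnt protein binds a Frizzled receptor together with LRP5 or LRP6. Without that signal, a cytoplasmic complex built on AXIN and APC lets the kinase GSK3 mark beta-catenin for destruction. With it, beta-catenin builds up, enters the nucleus and binds transcription factors of the TCF/LEF family, which otherwise sit on their target genes with repressors of the TLE family. In stratified and glandular epithelia the pathway is known for its part in the upkeep of progenitor cells, and beta-catenin also ties E-cadherin to the cytoskeleton at cell junctions.

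The oligomer was directed against the product of the MIR205 gene, so its 2 mature strands are shown first, from RefSeq (GRCh38.p14), with the seed (bases 2 to 8, the stretch that pairs with a target) in capitals. The 5p strand lies at chr1:209432166-209432187 and the 3p strand at chr1:209432203-209432223, both on the plus strand.
hsa-miR-205-5p: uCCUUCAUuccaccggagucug
hsa-miR-205-3p: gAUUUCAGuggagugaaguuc
The seeds of the 2 strands differ. Target sites in the transcripts of the 10 genes were not analysed here, and the arrays do not measure the mature microRNA.

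The promoter sequences at hand covered 3 transcription starts for TCF7L2, 2 for APC and 1 each for TCF7L1, LEF1, CTNNB1, AXIN1, GSK3B and LRP5. They covered these 8 genes, without LRP6 and FZD6, and need not hold every start that RefSeq lists. The window of each start runs from 250 bases before it to 50 bases after it. These 11 windows were searched on both strands for 4 forms of the core recognised by the TCF/LEF family. Over all 35116 promoter windows of the table, CTTTGAA was held by 4.43%, CTTTGAT by 2.62%, CTTTGTA by 2.77%, and CTTTGTT by 5.2%. At least 1 of the 4 was held by 13.8%, and a window with overlapping matches counted once. Among the 11 windows, 1 did, that of the middle TCF7L2 start, which is shown because TCF7L2 itself encodes a reader of this core. It lies on the plus strand of GRCh38.p14 at chr10:113126383-113126682, and the capitals mark CTTTGTT, which begins 133 bases before the start.
TCF7L2 middle start: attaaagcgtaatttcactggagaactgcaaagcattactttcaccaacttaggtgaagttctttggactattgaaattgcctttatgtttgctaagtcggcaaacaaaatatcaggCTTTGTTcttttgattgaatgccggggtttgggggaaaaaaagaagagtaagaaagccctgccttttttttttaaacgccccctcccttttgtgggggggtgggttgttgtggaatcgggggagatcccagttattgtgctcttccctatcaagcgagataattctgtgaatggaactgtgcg
A match is a string of letters and not a shown binding site. The GC content of this window was 42.7%, against 65.7% for the window of the first TCF7L2 start and a median of 58.7% over all windows. The first window held 25 CpG dinucleotides and this one 7. TCF7L2 has 17 RefSeq transcripts and 1 probe on the array, so the arrays do not separate its starts or isoforms.

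The quality of the arrays was as follows. A probe counted as detected on an array when its detection p, which sets it against that array's negative controls, was under 0.01, and this held for 12585 to 14195 of 48799 probes. Values below called normalized are log2 intensities after background correction and quantile normalization. The SD of the log2 difference between 2 arrays was 0.291 to 0.330 within a group and 0.306 to 0.330 between groups. Of 13423 probes tested with limma, 0 passed an adjusted p under 0.05 (0%), and 834 (6.21%) had an unadjusted p under 0.05, 428 higher (3.19%) and 406 lower (3.02%) in LNA-205. The 3 values of the groups did not overlap for 1603 probes (11.9%), 840 higher (6.26%) and 763 lower (5.68%).

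Most listed markers of basal epithelium were detected in the cells. Each of the 8 basal genes annotated on the array, out of 11 listed and with KRT5 and KRT14 among them, was detected on at least 3 of the 6 arrays. KRT15 was near the limit, detected on 1 LNA-205 and 2 LNA-Scr arrays. KRT17, TP63 and COL17A1 were not analysed here. By the same criterion, 2 of 9 luminal prostate genes were detected, KRT8 and KRT18, while KLK3, KLK2, TMPRSS2, MSMB, ACP3, FOLH1 and HOXB13 were not. Among markers of other cells, the stromal fibroblast list had 2 of 11 genes detected, FBLN1 and ACTA2, while COL1A1, COL1A2, COL3A1, DCN, LUM, PDGFRA, PDGFRB, DES and MYH11 were not. The summed normalized intensity of its 4 detected probes, on a linear scale, was 1784 to 1990 in LNA-205 and 1456 to 1542 in LNA-Scr, without overlap. By log2 difference, its FBLN1 probes gave 0.56 and 0.24 without overlap and 0.51 with overlap, and ACTA2 gave 0.16 with overlap. The immune and endothelial list had 2 of 12 genes detected, CD14 and CD68, while PTPRC, ITGAM, PECAM1 and VWF were not. It summed to 6239 to 6570 in LNA-205 and 5513 to 6222 in LNA-Scr, also without overlap but close at the nearest values. By log2 difference, 1 CD68 probe gave 0.20 without overlap and the other 0.01 with overlap, and CD14 gave 0.31 with overlap. The neuroendocrine list had 1 of 7 genes detected, INSM1, at 159 to 257 in LNA-205 and 107 to 211 in LNA-Scr. The part of these in the values below was not tested.

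TCF7L2 (probe ILMN_1672486), the TCF/LEF factor that is abundant in many epithelia, gave an intensity of 484, 484 and 479 in LNA-205 samples D, E and F, against 626, 715 and 700 in LNA-Scr samples A, B and C, before any normalization. The 3 LNA-205 values lay within a few units of one another and below every LNA-Scr value. After normalization the log2 values were 8.14, 8.18 and 8.37 in LNA-205, against 8.98, 8.86 and 9.08 in LNA-Scr. The means were 8.23 ± 0.12 in LNA-205 and 8.97 ± 0.11 in LNA-Scr (SD, n = 3 each). The log2 difference was −0.75, a 1.68-fold lower level in LNA-205, and the groups stood 0.49 apart at their nearest values. Of 13423 probes tested, 22 were lower by more than that. TCF7L2 was chosen for its lower signal on these arrays, so this place is no separate result.

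The probe was above background on all 6 arrays, but not far above it in LNA-205. Its intensity was 1.22, 1.35 and 1.45 times the lowest intensity detected on the same array in LNA-205 samples D, E and F, and 2.07, 2.08 and 1.87 times in LNA-Scr samples A, B and C. Estimated from the detection p-values, the mean intensity of the negative controls was 191 to 199 over the 6 arrays. Their estimated SD was 43.7, 56.0 and 37.9 in LNA-205 samples D, E and F, and 31.0, 39.2 and 40.2 in LNA-Scr samples A, B and C. The lowest detected intensity was 331 to 396 in LNA-205 and 303 to 374 in LNA-Scr, so the detection limit differed between arrays, and its part in the difference was not tested. The size of the difference depended on whether that background was removed. With no background correction the log2 difference was −0.51, and with the authors' processed log2 values it was also −0.51. In RNA from whole cultures, fewer cells expressing a gene and less of its RNA per cell cannot be told apart.

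**Figure D1:**
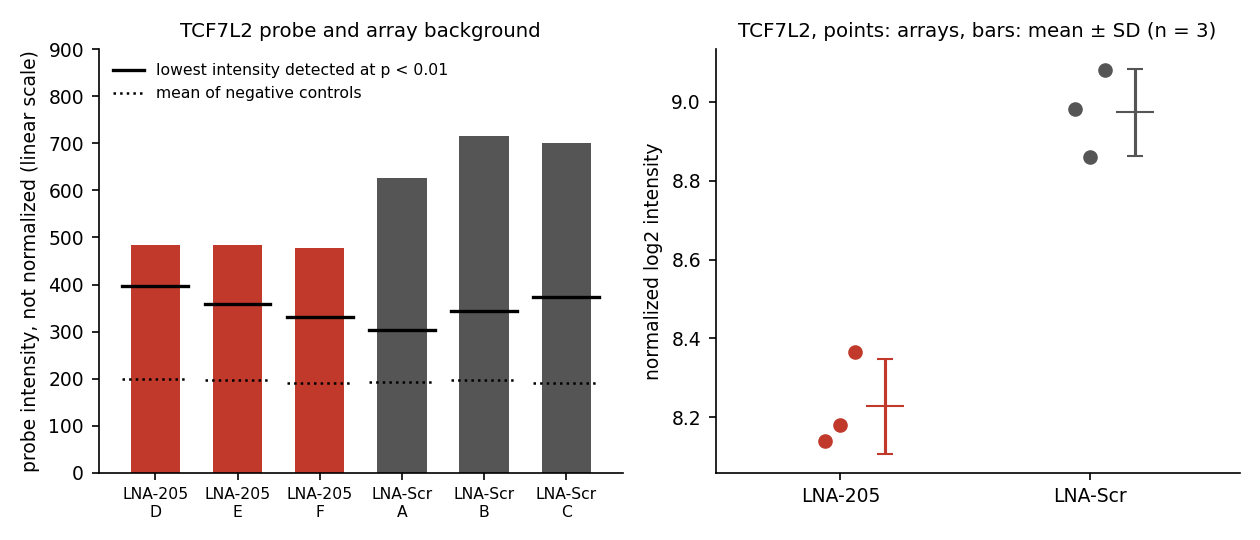
TCF7L2 on the 6 arrays. Left, probe intensity before normalization (bars, linear scale) with the lowest detected intensity of each array (solid lines) and the estimated mean of its negative controls (dotted lines). Right, normalized log2 intensity, points for arrays and bars for mean ± SD (n = 3 each). The 3 LNA-205 values are 479 to 484 on the left and 8.14 to 8.37 on the right, below all LNA-Scr values on both scales.

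The other 2 TCF/LEF members were not measurable. TCF7L1 (ILMN_1733841), which acts mostly as a repressor, was detected on 0 of the 6 arrays. Its intensity was 247 to 282 in LNA-205 and 276 to 329 in LNA-Scr, with detection p between 0.0132 and 0.0791. Its normalized log2 values were 6.15, 6.64 and 6.60 in LNA-205 and 6.78, 6.96 and 7.28 in LNA-Scr, which did not overlap, while the intensities before normalization did. No fold is given because both groups lay under the detection limit.

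LEF1, an activator and itself a reported Wnt target, has 2 probes on the array, and neither was above background anywhere. ILMN_2213136 gave 232 to 254 in LNA-205 and 238 to 252 in LNA-Scr. ILMN_1679185 gave 342, 240 and 197 in LNA-205 samples D, E and F, and 247, 246 and 212 in LNA-Scr samples A, B and C, so sample D stood above the others while still short of detection (detection p 0.0171). The groups overlapped for both probes. TCF7, the remaining family member, was not analysed here.

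CTNNB1 encodes beta-catenin, the partner through which TCF/LEF factors activate genes. It has 7 probes on the array, of which 2 were detected on all 6 arrays. ILMN_1746396 had normalized log2 values of 10.04, 10.10 and 9.77 in LNA-205 and 9.85, 9.97 and 9.89 in LNA-Scr. ILMN_1757350 had 9.90, 9.90 and 10.12 in LNA-205 and 10.09, 9.90 and 9.63 in LNA-Scr. The groups overlapped for both probes, and neither difference passed the test. The log2 differences were 0.07 (95% interval −0.21 to 0.34, limma adjusted p = 0.949) and 0.10 (95% interval −0.22 to 0.43, limma adjusted p = 0.933).

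Another CTNNB1 probe, ILMN_1651617, lay near the limit of detection, with intensities of 360, 291 and 292 in LNA-205 samples D, E and F, against 401, 480 and 359 in LNA-Scr samples A, B and C. It was above background on 0 of 3 LNA-205 arrays and on 2 of 3 LNA-Scr arrays, which left it out of the test. Its normalized log2 values averaged 7.02 ± 0.33 in LNA-205 and 7.85 ± 0.27 in LNA-Scr (SD, n = 3 each) and did not overlap. The intensities before normalization did overlap, at LNA-205 sample D and LNA-Scr sample C. Against the detection limit of the LNA-205 arrays it was at least 1.29-fold lower in LNA-205. That bound rests on the mean of all 3 LNA-Scr arrays, including sample C, where the probe was not detected. The array annotation gives this probe and the 2 tested ones the same transcript, and their differences of 0.07 and 0.10 had the opposite sign. The other 4 CTNNB1 probes were detected on 0 arrays, and their groups overlapped.

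AXIN1, the scaffold of the destruction complex, was read by 1 detected probe, ILMN_1766185, with normalized log2 values of 11.52, 11.74 and 11.70 in LNA-205 and 11.52, 11.83 and 11.87 in LNA-Scr. The log2 difference was −0.09 (95% interval −0.39 to 0.22, limma adjusted p = 0.941). A second AXIN1 probe, ILMN_1692967, annotated to another transcript, was not above background on any array (intensity 240 to 300 in LNA-205 and 231 to 257 in LNA-Scr). GSK3B, the kinase that marks beta-catenin for destruction, had 11.34, 11.48 and 11.47 in LNA-205 and 11.45, 11.57 and 11.64 in LNA-Scr. Its log2 difference of −0.12 (95% interval −0.36 to 0.13, limma adjusted p = 0.903) was close to its SE of 0.11. Both genes overlapped between the groups.

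APC, the tumour suppressor that holds beta-catenin in the complex, has 1 probe (ILMN_1662668), which was not above background on any array. It gave 197 to 219 in LNA-205 and 189 to 210 in LNA-Scr, close to the negative controls, so these arrays hold no level for it.

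Among the receptors, FZD6 (ILMN_1659297), a Frizzled known for signalling in planar cell polarity and for restraining the canonical pathway, had normalized log2 values of 10.86, 10.49 and 10.51 in LNA-205 and 10.69, 10.76 and 10.79 in LNA-Scr. Sample D of LNA-205 was the highest of the 6 and samples E and F were the lowest. The log2 difference was −0.13 (95% interval −0.42 to 0.17, limma adjusted p = 0.913).

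The co-receptor LRP5 was read by 2 probes. ILMN_1702775 had 10.01, 10.15 and 10.20 in LNA-205 and 9.93, 10.38 and 10.35 in LNA-Scr, a log2 difference of −0.10 (SE 0.15). ILMN_2075892 was detected on 5 of the 6 arrays, with 7.58, 7.64 and 7.99 in LNA-205 and 8.06, 7.78 and 7.80 in LNA-Scr, a log2 difference of −0.14 (SE 0.15). The 2 probes thus gave similar differences, neither beyond its error. Its relative LRP6 (ILMN_1732913) was detected on 1 of the 6 arrays, LNA-Scr sample B, with 283, 273 and 250 in LNA-205 samples D, E and F, against 288, 381 and 273 in LNA-Scr samples A, B and C. No fold is given for LRP6, because the LNA-Scr mean did not exceed the detection limit of the LNA-205 arrays.

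**Figure D2:**
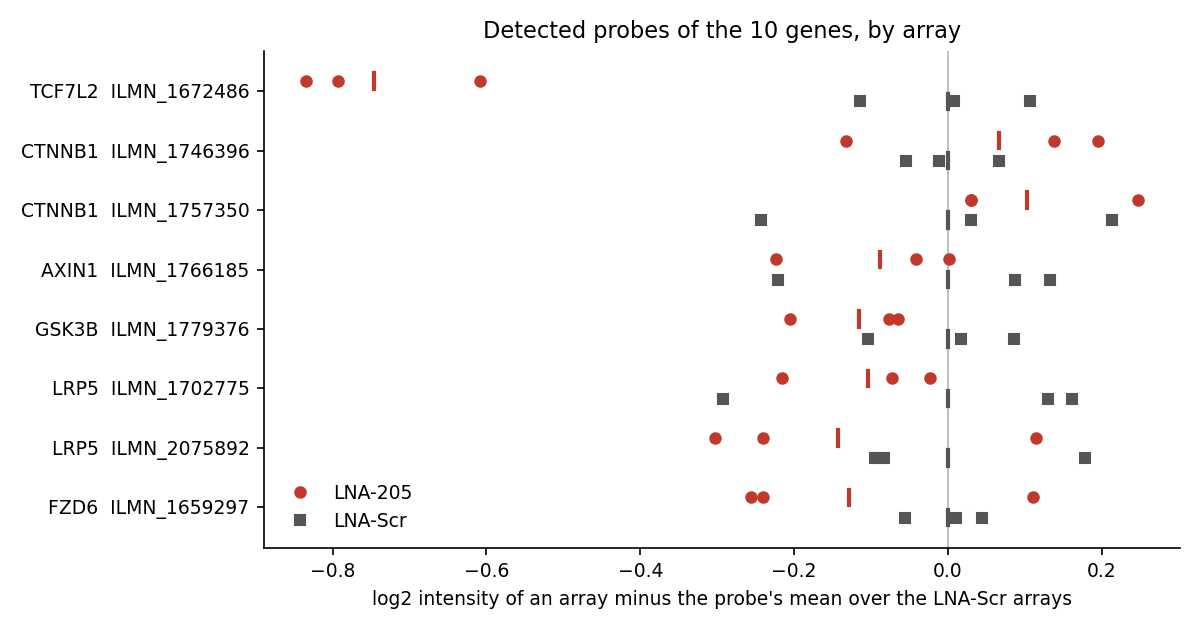
The 8 detected probes of the 10 genes. The x axis is the normalized log2 intensity of an array minus the mean of the same probe over the 3 LNA-Scr arrays, with circles for LNA-205 arrays, squares for LNA-Scr arrays and ticks for group means. The TCF7L2 circles lie apart from its squares, with a mean of −0.75, and the other 7 probes overlap, with means between −0.14 and 0.10.

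Beside TCF7L2, then, 5 of the other 9 genes were measured, by 7 probes. Of these 7 probes, 0 passed the adjusted threshold and 0 had an unadjusted p under 0.05, where 6.21% of all tested probes did. The groups overlapped for all 7, where 11.9% of all tested probes did not overlap. Their log2 differences ran from −0.14 to 0.10, with a median of −0.10 against a median of 0.00 over all tested probes. Limma adjusted p lay between 0.903 and 0.949. The 95% intervals reached from −0.48 at the lowest to 0.43 at the highest, and changes of a size within a probe's interval were not excluded by the 3 arrays per group.

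The remaining 11 probes, from TCF7L1, LEF1, APC, LRP6 and the dim probes of CTNNB1 and AXIN1, did not pass the filter of detection on at least 3 arrays, and 9 of them were detected on 0 arrays. The normalized values did not overlap for 3 of the 11, each lower in LNA-205, those of TCF7L1, LRP6 and CTNNB1 ILMN_1651617. Before normalization the intensities of each of the 3 overlapped. Of all tested probes 11.9% did not overlap, 5.68% being lower, and no share over undetected probes was taken. Fitted without the detection filter, the same 3 had unadjusted p of 0.0162, 0.0315 and 0.00302 in limma, where 5.28% of 48799 probes fell under 0.05. Their limma adjusted p was 0.921, and these p-values describe probes already named for not overlapping. Each lay at or under the detection limit on all 3 LNA-205 arrays.

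**Figure D3:**
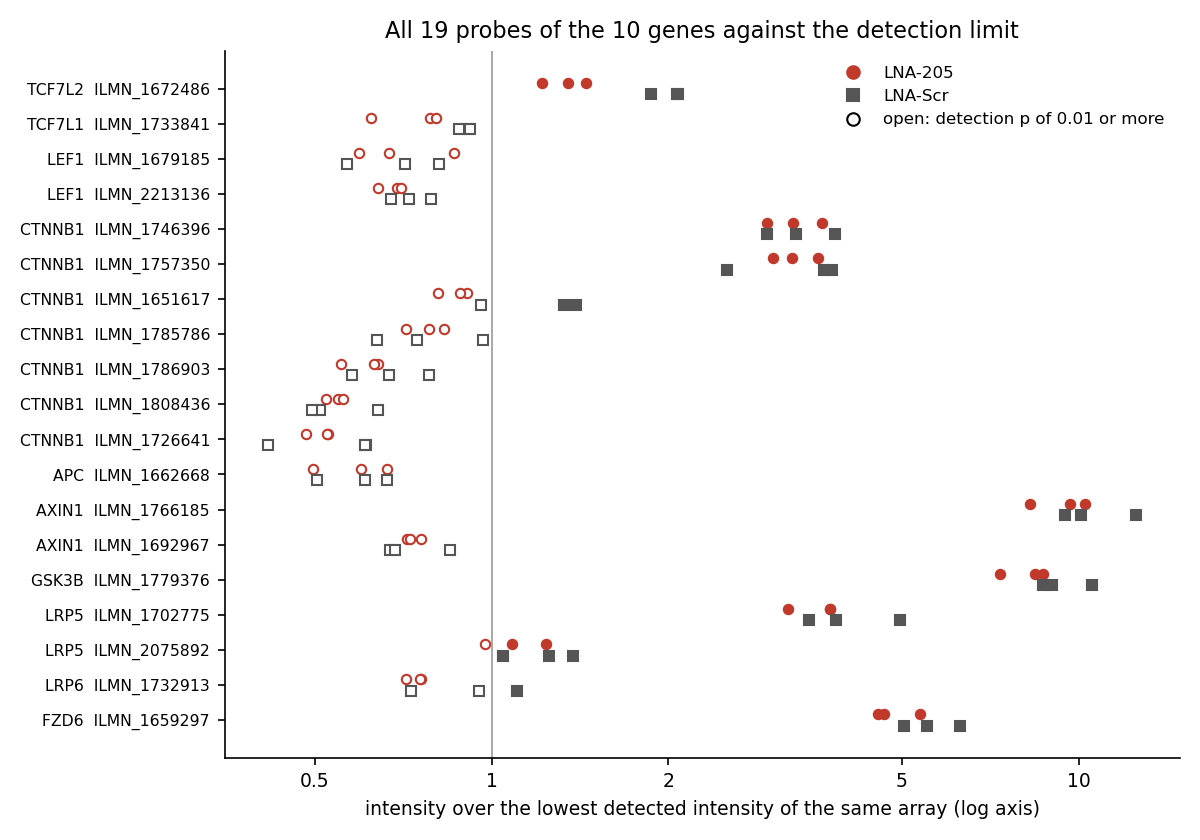
All 19 probes against the detection limit. The x axis (log scale) is the intensity of a probe over the lowest intensity detected on the same array, with 1 as the limit, circles for LNA-205 arrays and squares for LNA-Scr arrays. Filled symbols had a detection p under 0.01 and open ones did not, and the probes of TCF7L1, LEF1 and APC are open on all 6 arrays. Positions of different probes are not comparable as levels, since probes differ in how strongly they bind.

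The 5 probes of other named genes whose values followed TCF7L2 most closely over the 6 arrays were those of TPI1P2, ADAM15, HS3ST3A1, DBN1 and XYLT2. Pearson correlations over the 6 arrays were 0.984, 0.984, 0.981, 0.974 and 0.973, taken as the highest among all tested probes and given as a description. ADAM15 encodes a membrane-bound disintegrin and metalloproteinase, HS3ST3A1 a heparan sulfate sulfotransferase, DBN1 the actin-binding protein drebrin and XYLT2 a xylosyltransferase of proteoglycan synthesis. TPI1P2 is a pseudogene of TPI1, and signal from the parent gene cannot be told apart from its own. Their log2 differences were −0.22 for TPI1P2, −0.30 for ADAM15, −0.28 for HS3ST3A1 and DBN1 and −0.18 for XYLT2, all smaller than that of TCF7L2. Each was lower in LNA-205 without overlap, as were 5.68% of all tested probes. The choice by correlation with TCF7L2 made this likely in advance, so it is no separate result. Among the pathway members, GSK3B had the highest correlation with TCF7L2 (r = 0.69) and CTNNB1 ILMN_1746396 the lowest (r = −0.48), over the same 6 arrays, which share the 2 groups.

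The rest of the pathway was read from 6 lists with 137 genes in all. Of these, 133 were on the array as annotated and 66 were measured, by 97 probes. Of the 97, 0 passed the adjusted threshold. At an unadjusted p under 0.05 there were 6 (6.19%), against 6.21% of all tested probes, 2 higher and 4 lower. The groups did not overlap for 13 (13.4%), 5 higher and 8 lower, against 11.9% of all tested probes. The median log2 difference was −0.03.

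Wnt ligands and their export were measured by 9 probes for 5 of 20 genes, and the median log2 difference was −0.07. Of the 9 probes, 0 had an unadjusted p under 0.05, against 6.21% of all tested probes. WLS, the carrier that takes Wnt proteins to the cell surface, was read by 5 probes with differences from −0.25 to 0.04. WNT7A had 8.77, 8.50 and 8.87 in LNA-205 and 8.92, 8.78 and 8.97 in LNA-Scr (normalized log2). WNT7B, a ligand of the canonical pathway in epithelia, had the smallest p of the list, with a log2 difference of −0.33 (SE 0.15, limma adjusted p = 0.804), and was detected on 2 of 3 LNA-205 and 3 of 3 LNA-Scr arrays. WNT16 differed by −0.26 (SE 0.22). The groups overlapped for all 9 probes, where 11.9% of all tested probes did not overlap.

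Receptors and co-receptors outside the 10 genes were measured by 10 probes for 7 of 16 genes, with a median log2 difference of −0.07. Of these 10 probes, 0 had an unadjusted p under 0.05, against 6.21% of all tested probes. FZD1 had 7.86, 7.84 and 8.11 in LNA-205 and 7.56, 7.29 and 7.91 in LNA-Scr (normalized log2), a difference of 0.35 (SE 0.17, limma adjusted p = 0.804). A second FZD1 probe was detected on 1 LNA-Scr array only. FZD2 and FZD7 differed by −0.08 (SE 0.12) and 0.07 (SE 0.15). RYK, a Wnt receptor of the kinase family, differed by −0.12, −0.08 and −0.06 on its 3 probes. PTK7 gave −0.15 and 0.05 on 2 probes, and LGR4, a receptor for R-spondins, −0.24 (SE 0.23).

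Secreted and membrane modulators were measured by 7 probes for 5 of 22 genes, with a median log2 difference of −0.07. Of these 7 probes, 0 had an unadjusted p under 0.05, against 6.21% of all tested probes. DKK1, a secreted inhibitor that binds LRP5 and LRP6, had 13.77, 13.66 and 13.71 in LNA-205 and 13.75, 13.87 and 13.75 in LNA-Scr (normalized log2, ILMN_1773337). Its log2 difference was −0.08 (SE 0.10), and a second probe gave −0.25 (SE 0.15). SFRP1, a decoy receptor for Wnt proteins, differed by −0.07 (SE 0.11). KREMEN2 and KREMEN1, receptors for DKK proteins, differed by −0.16 (SE 0.16) and 0.13 (SE 0.26).

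The destruction complex and the cytoplasmic transducers were measured by 24 probes for 15 of 25 genes, with 1 at an unadjusted p under 0.05 (4.17%, against 6.21% of all tested probes) and a median log2 difference of 0.02. That probe was DVL2, a Dishevelled protein that relays the receptor signal to AXIN. It had 9.92, 10.02 and 10.03 in LNA-205 and 9.74, 9.62 and 9.63 in LNA-Scr (normalized log2), so every LNA-205 array was above every LNA-Scr array. The log2 difference was 0.32 (SE 0.10), but the limma adjusted p was 0.743. CSNK1A1, the casein kinase that primes beta-catenin, gave −0.24 (SE 0.11) on 1 probe and 0.08 and 0.03 on the other 2. PPP2CA and PPP2R1A, subunits of a phosphatase that binds the complex, differed by −0.16 (SE 0.12) and −0.09 (SE 0.13), with −0.04 from a second PPP2CA probe. AMER1, a binding partner of APC, differed by 0.17 (SE 0.13). The groups did not overlap for DVL2, AMER1, the first CSNK1A1 probe and the first PPP2CA probe, which makes 4 of 24 (16.7%, against 11.9% of all tested probes). AXIN2, the feedback scaffold that beta-catenin induces, was detected on 0 arrays.

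Partners and co-regulators of the TCF factors were measured by 27 probes for 20 of 24 genes. At an unadjusted p under 0.05 there were 4 (14.8%), 1 higher and 3 lower, and the groups did not overlap for 7 (25.9%), 2 higher and 5 lower. The median log2 difference was −0.07, and the differences ran from −0.44 to 0.42. Against the shares of 6.21% and 11.9% over all tested probes these are higher shares, and 0 of the 27 passed the adjusted threshold. Of the 2 higher probes without overlap, that of TLE1 is named below and the other is not, while all 5 lower ones are.

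BCL9, which links beta-catenin to Pygopus, had 9.40, 9.35 and 9.02 in LNA-205 and 9.63, 9.54 and 9.58 in LNA-Scr (normalized log2). Its log2 difference was −0.33 (SE 0.13, limma adjusted p = 0.784). TLE1, a repressor that occupies TCF factors in the absence of beta-catenin, had 9.05, 9.16 and 9.23 in LNA-205 and 9.01, 8.76 and 8.82 in LNA-Scr, a difference of 0.28 (SE 0.11, limma adjusted p = 0.794). TLE5, a short family member without the repressor's full set of domains, differed by −0.27 (SE 0.12) and −0.12 (SE 0.10) on 2 detected probes, which did not overlap between the groups. Another TLE5 probe was detected on 0 arrays and had the opposite sign, with normalized log2 values of 6.68, 6.73 and 6.92 in LNA-205 and 6.48, 6.30 and 6.32 in LNA-Scr.

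For JUP and CTBP1 the lower value came from 1 probe of 3. JUP (gamma-catenin or plakoglobin), a relative of beta-catenin in desmosomes and adherens junctions, averaged 9.59 ± 0.07 in LNA-205 and 9.91 ± 0.11 in LNA-Scr on ILMN_2366864 (normalized log2, SD, n = 3 each) without overlap, a log2 difference of −0.32 (SE 0.11, limma adjusted p = 0.743). Its other 2 probes gave −0.03 (SE 0.10) and 0.02 (SE 0.12). CTBP1, a transcriptional co-repressor, gave −0.44 (SE 0.16, limma adjusted p = 0.772) on ILMN_2379734, and 0.09 (SE 0.15) and −0.03 (SE 0.24) on its other 2 probes. E-cadherin (CDH1), which binds beta-catenin at the membrane, differed by 0.06 (SE 0.11).

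Transcripts reported elsewhere as targets of Wnt/beta-catenin signalling were measured by 22 probes for 15 of 33 genes, with 1 at an unadjusted p under 0.05 (4.55%, against 6.21% of all tested probes) and a median log2 difference of 0.05. Means were higher for 13 and lower for 9, against 6699 and 6724 of all tested probes. The groups did not overlap for 2 (9.09%, against 11.9% of all tested probes). Several general targets, AXIN2, LGR5, NKD1, RNF43, ZNRF3 and NOTUM, were not detected on 3 or more arrays. FOSL1, a subunit of the AP-1 factor, had 10.93, 11.07 and 10.98 in LNA-205 and 11.35, 11.42 and 11.23 in LNA-Scr (normalized log2). Its log2 difference was −0.34 (SE 0.11), and the limma adjusted p was 0.743. The cell cycle regulator CCND1 differed by −0.11 (SE 0.10), and MYC, a growth-promoting transcription factor, by 0.10 (SE 0.13) and 0.02 (SE 0.14) on 2 probes. EDN1 and SOX4 differed by 0.34 (SE 0.18) and 0.38 (SE 0.21), each with overlapping groups.

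**Figure D4:**
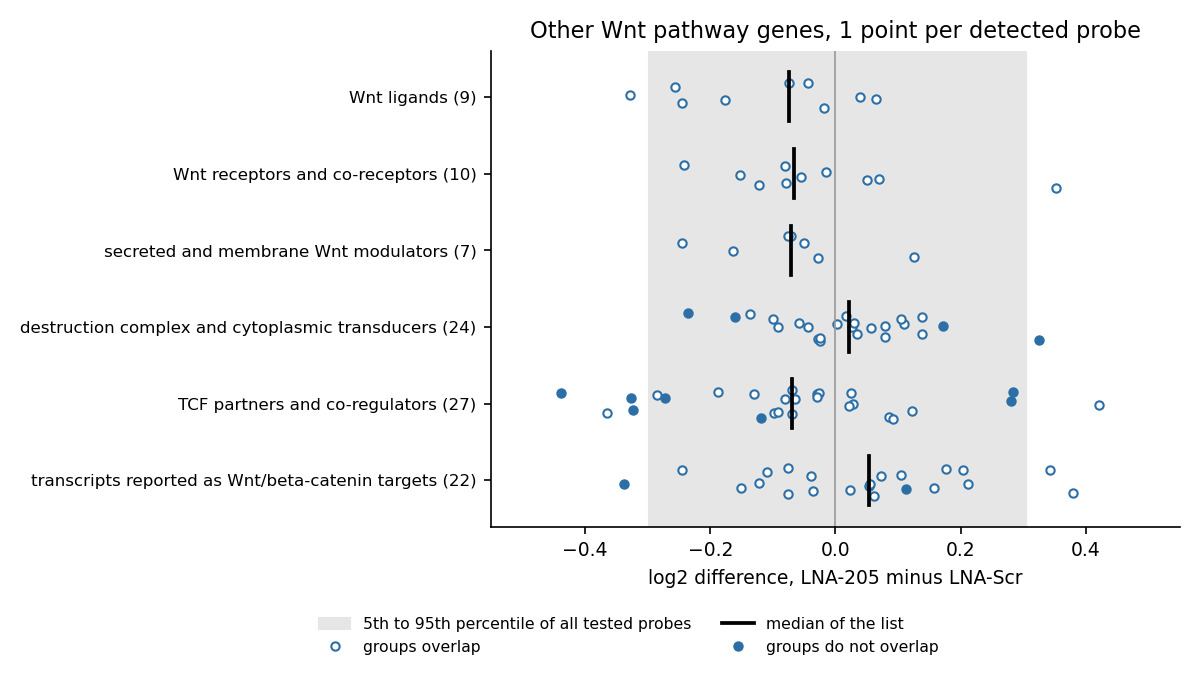
Log2 differences (LNA-205 minus LNA-Scr, x axis) of the detected probes of 6 lists of other Wnt pathway genes, 1 point per probe, with the number of probes in brackets. Filled points did not overlap between the groups, black ticks are list medians and the grey band spans the 5th to the 95th percentile of all tested probes (−0.30 to 0.30). List medians lie between −0.07 and 0.05. DKK1 is a point in 2 lists.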

How the data were processed

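Expression was measured in 6 RWPE-1 cultures on Illumina bead arrays. The deposited unnormalized values are log2 probe intensities without background subtraction, read from the values. Detection p-values were deposited beside each sample's column, per the file headers. The authors' processed log2 values served as an alternative, with steps not given in the sources used here (lumi is named per the submitters' processing notes). Background was corrected and values normalized with limma's neqc (offset 16), its controls inferred from the detection p-values. Of 48803 probe rows, 4 held no values. Probes with a detection p under 0.01 on at least 3 of 6 arrays (13423, or 27.5%) were each fitted with lmFit and eBayes, two-sided, in limma 3.58.1 (R 4.3.3), with Benjamini-Hochberg adjustment over all of them. Symbols came from the platform annotation (28095 probes with 1 symbol, 13 with several, 20691 not listed), updated by gene identifier for 28056. The fit was tested on simulated data.

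Members and lists were chosen with earlier results of these data known. Named are all member probes, the 5 probes most correlated with TCF7L2, from each list the 4 genes of smallest p and the 2 brightest, and 8 genes wherever they were on the array (AXIN2, TCF7, CCND1, JUP, FZD1, FZD7, DKK1, CDH1). Other detected probes of a named gene are given where there are any. The targets not detected, and SP5, ASCL2, EPHB3 and JAG1, were named after their status was seen.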

Additional observations from a re-analysis of the deposited data

How the results depend on the processing

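The 7 detected probes of the other 9 genes and the 97 list probes gave 0 calls under each of the 12 alternatives, wherever they were tested (LRP5 ILMN_2075892 left the test under 2 of them and CTNNB1 ILMN_1757350 under 1). Over all probes the count was 0, and 1 (MCCC2, lower in LNA-205) with no background correction, with the authors' values, with an offset of 50, with detection on all 6 arrays and with 1 probe per gene. It stayed at 0 with any array left out, with 685 to 922 probes at an unadjusted p under 0.05. TCF7L2 was lower under all 12, from −0.82 to −0.51, and from −0.82 to −0.69 with 1 array left out. It was chosen for its lower signal on these same arrays, so its kept direction is no separate support. CTNNB1 ILMN_1757350 ran from −0.019 (without LNA-Scr replicate C) to 0.21, its 1 change of sign, and the other 6 probes kept theirs while their size moved. With 1 array left out, LRP5 ILMN_1702775 was at −0.25 when LNA-Scr A was dropped and at −0.023 when LNA-Scr B was, LRP5 ILMN_2075892 ran from −0.27 (without LNA-205 replicate F) to −0.055 (without LNA-Scr replicate A), and AXIN1 was at −0.20 when LNA-Scr A was dropped and at −0.021 when LNA-205 D or LNA-Scr C was. FZD6 ran from −0.25 (without LNA-205 replicate D) to −0.065 (without LNA-205 replicate E), GSK3B was at −0.17 when LNA-Scr A was dropped and at −0.071 when LNA-205 D was, and CTNNB1 ILMN_1746396 ran from 0.0018 (without LNA-205 replicate E) to 0.17 (without LNA-205 replicate F). Without the detection filter more probes were tested. The 19 member probes, TCF7L2 aside, then gave 3 at an unadjusted limma p under 0.05, in place of 0. The 212 list probes gave 14, in place of 6 of 97. Over all 48799 probes the share was 5.28% (2576), against 6.21% with the filter. No paired analysis was possible because no replicate letter occurs in both groups. Signal over background limits TCF7L1, LEF1, APC and LRP6.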
